A study of Rattus norvegicus with 9 samples.

Results

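Elastic fibres and the lysyl oxidases that cross-link them were followed in rat liver through 9 genes: elastin (Eln), fibrillin-1 (Fbn1), the fibulins Fbln1, Fbln2, Fbln5 and Efemp1, and the lysyl oxidases Lox, Loxl1 and Loxl2. A probe set of the array was counted as belonging to a gene when the gene symbol in the deposited table was one of these names, which gave 13 of the 31042 probe sets tested and 9 of the 14377 genes with a probe set of their own. The brightest probe set of a gene, by its mean over all arrays, gave its values, and the 4 remaining probe sets, of Eln, Fbn1, Fbln1 and Lox, are described apart.

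Liver RNA of 9 male Sprague-Dawley rats was hybridised to Affymetrix rat expression arrays, with 1 array for each rat and 3 rats in each of 3 groups. Vehicle rats (replicates 3, 4 and 5) were the controls. CCl4 rats (replicates 1, 2 and 3) were injected in the abdominal cavity with carbon tetrachloride, a solvent that injures hepatocytes and scars the liver, for 8 weeks. CCl4+Rot rats (replicates 4, 5 and 6) had the same injections and, from 2 weeks after the first of them, rottlerin, a plant polyphenol labelled as an activator of the BK potassium channel, at 2.5 mg/kg. How often rottlerin was given, what the vehicle was and the ages of the animals were not given in the sources used here. The arrays read whole pieces of liver, so fewer cells of a type and less RNA per cell cannot be told apart. The design asks which of these genes differed between scarred and vehicle liver, and whether rottlerin moved them in CCl4 rats.

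An elastic fibre is a core of elastin laid down on a scaffold of fibrillin microfibrils. Fibulins attach tropoelastin, the soluble form, to the scaffold, and lysyl oxidases oxidise lysine side chains so that elastin and collagen chains become covalently cross-linked. In a healthy liver such fibres lie mainly around portal vessels and in the capsule, and in a scarred liver they are found in the fibrous septa, where portal fibroblasts and myofibroblasts make them. Cross-linking by lysyl oxidases makes scar tissue stiffer and slower to dissolve.

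The sequence just before the gene start is shown for Loxl1, Fbln5 and Efemp1, chosen after their values were seen, because the first had the largest mean difference from vehicle of the 9 genes, the second encodes a protein known to bind its product in fibre assembly, and the third was the only one with a lower mean in CCl4 rats than in vehicle rats. Each is the 250 bases upstream of the start in the RefSeq annotation of GRCr8, read 5′ to 3′ on the strand of the gene, at chr8:67612225-67612474 (minus strand) for Loxl1, chr6:126742707-126742956 (minus strand) for Fbln5 and chr14:106811614-106811863 (plus strand) for Efemp1. Capitals mark CAGAC, the core letters to which SMAD proteins, the transcription factors of the TGF-β pathway, bind, or its reverse complement GTCTG.
Loxl1: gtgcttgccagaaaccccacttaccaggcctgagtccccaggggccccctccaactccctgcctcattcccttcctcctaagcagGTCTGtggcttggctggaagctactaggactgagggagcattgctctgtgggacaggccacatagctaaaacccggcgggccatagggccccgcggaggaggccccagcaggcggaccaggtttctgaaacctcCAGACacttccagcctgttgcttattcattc
Fbln5: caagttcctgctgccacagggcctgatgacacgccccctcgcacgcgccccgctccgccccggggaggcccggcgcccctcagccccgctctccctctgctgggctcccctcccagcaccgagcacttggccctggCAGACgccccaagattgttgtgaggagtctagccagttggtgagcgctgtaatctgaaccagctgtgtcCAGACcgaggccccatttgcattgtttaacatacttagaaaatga
Efemp1: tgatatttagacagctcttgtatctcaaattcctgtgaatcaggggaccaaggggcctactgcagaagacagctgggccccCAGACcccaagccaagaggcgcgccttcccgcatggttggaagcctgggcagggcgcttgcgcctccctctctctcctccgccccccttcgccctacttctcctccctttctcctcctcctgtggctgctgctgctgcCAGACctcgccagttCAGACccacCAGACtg
The motif occurred 2 times in the Loxl1 sequence, 2 times in that of Fbln5 and 4 times in that of Efemp1, counting both strands. RefSeq sequences were matched for 5 of the 9 genes. The motif was present in 4 of the 5, with 1 match for Fbn1 and none for Fbln2, and in 42.9% of the 33469 upstream sequences of this length in the same table. A match of 5 letters is a description of the sequence and not a binding site.

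Signals are given as deposited, on a log2 scale on which a difference of 1 is a doubling, and each came with a detection call of present, marginal or absent. Levels of different genes are not compared, since each probe set has a brightness of its own. To be called changed, a gene had to differ by at least 1.5-fold with an adjusted p (Benjamini-Hochberg) below 0.05 in a limma fit over all probe sets. With 3 arrays against 3, an exact two-sided permutation test cannot go below p = 0.1 for a single gene. CCl4 replicate 3 stood apart from the other arrays, with 12714 probe sets called present against 15550 to 16849 and a median log2 signal over all probe sets of 7.81 against 6.79 to 7.01, so results that rest on it are also given without it. The hepatocyte marker list (5 of 6 genes measured) was called present in full on all 9 arrays. Its mean log2 signal was 13.70 on CCl4 replicate 3 and 14.42 to 14.62 on the other 8.

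The median log2 difference between CCl4 and vehicle over the 9 genes was 1.07, against 0.13 over all 14377 genes. The mean was higher in CCl4 rats for 8 of the 9 genes, by at least 1.5-fold for 6 of them, while 61.2% of all genes were higher and 24.2% were higher by at least 1.5-fold. Eln, Fbn1, Fbln1 and Loxl1 had no overlap between CCl4 and vehicle rats, as 12.5% of all genes had with CCl4 rats higher. Between CCl4+Rot and vehicle the median was 1.47 against 0.03 over all genes, the mean was higher for all 9 genes, and 7 of them had no overlap between the groups, where 15.2% of all genes were higher without overlap. None of the 9 genes was called in either comparison by limma.

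**Figure D1:**
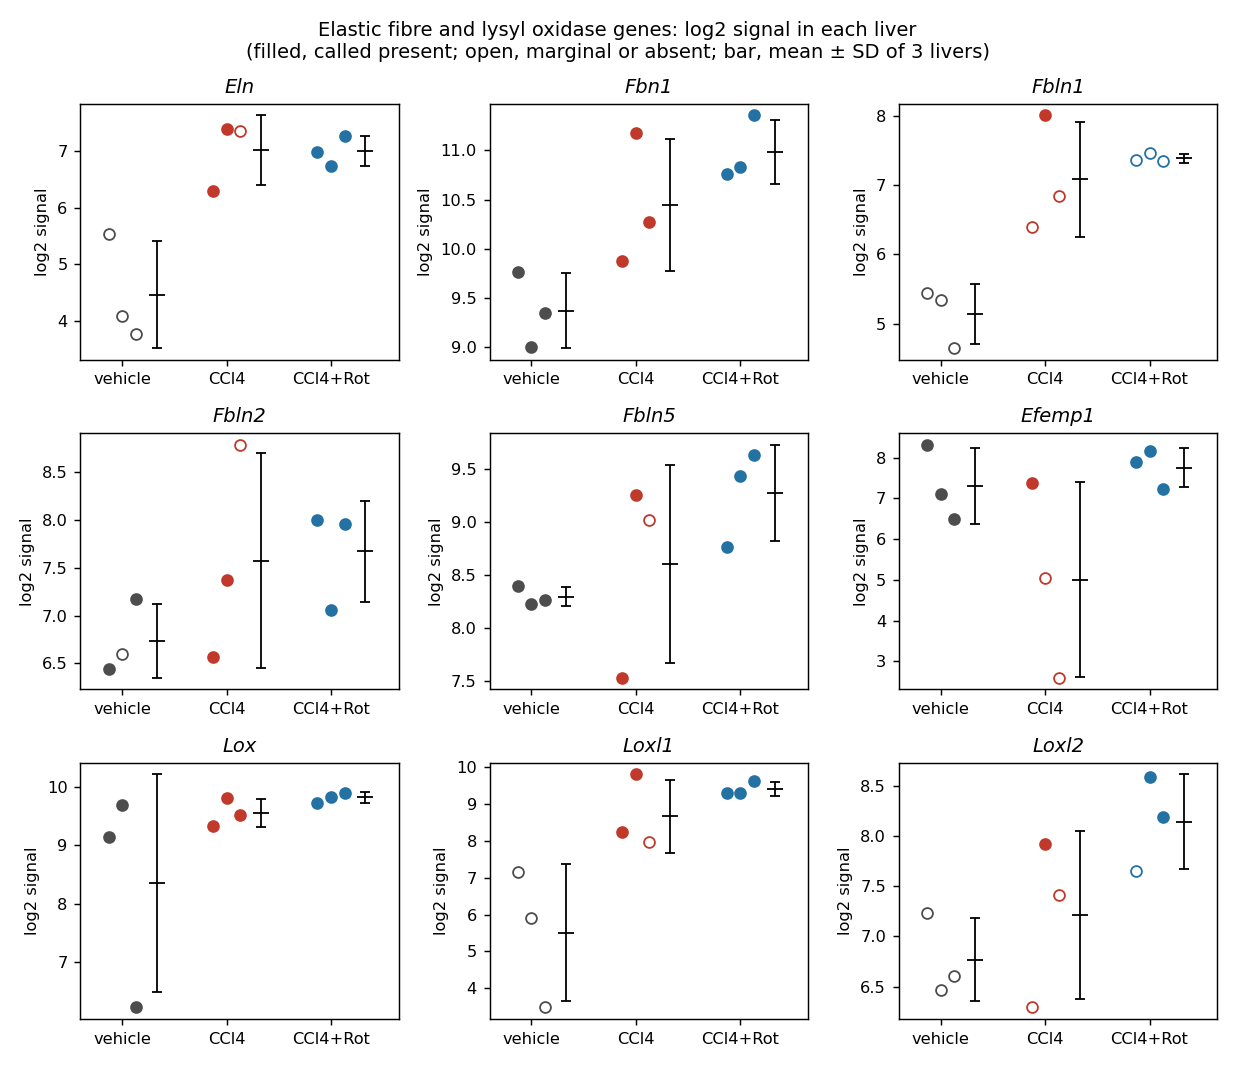
Log2 signal (vertical axis) of the 9 genes on each array, by group (horizontal axis); filled points were called present, open points marginal or absent, and the bar is the group mean with its SD. Eln and Loxl1 were called absent in all 3 vehicle rats and present in all 3 CCl4+Rot rats, and Efemp1 ran from 2.60 to 7.37 within the CCl4 group.

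Elastin is the extensible core of the fibre. Eln (Entrez 25043, chromosome 12, 26978770 to 27022634, plus strand, as the table lists it) had log2 signals of 5.54, 4.09 and 3.76 in vehicle rats 3, 4 and 5, of 6.30, 7.39 and 7.35 in CCl4 rats 1, 2 and 3, and of 6.98, 6.74 and 7.27 in CCl4+Rot rats 4, 5 and 6. All 3 vehicle arrays were called absent, and so was CCl4 replicate 3. The lowest CCl4 rat lay above the highest vehicle rat, and CCl4+Rot rats lay inside the range of CCl4 rats. Vehicle rats had a mean of 4.46 ± 0.945 (SD, n = 3). For CCl4 rats it was 7.01 ± 0.62, and for CCl4+Rot rats 7.0 ± 0.267, each over 3 rats. The log2 difference between CCl4 and vehicle rats was 2.55 with an SE of 0.505 (limma adjusted p = 0.202), and 2.38 without the CCl4 array called absent. In CCl4+Rot rats, all called present, the level was 5.79-fold higher than in vehicle rats (limma adjusted p = 0.2). The log2 difference was 2.53, with a 95% interval of 1.36 to 3.71. That fold is a lower bound only as to detection, because vehicle signals called absent give only an upper limit of the level. It leaves out the spread between rats, which the interval gives. CCl4+Rot and CCl4 rats differed by -0.016, with a 95% interval of -1.19 to 1.16. That value turned to 0.28 under quantile normalization and to 0.23 under median centring, so it carries no direction.

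Fibrillin-1 forms the microfibrils on which elastin is deposited. Fbn1 (Entrez 83727, chromosome 3, 124094457 to 124289500, minus strand) was called present in every rat. Its log2 signals were 9.77, 9.01 and 9.34 in vehicle rats, 9.87, 11.18 and 10.27 in CCl4 rats, and 10.76, 10.83 and 11.35 in CCl4+Rot rats. The vehicle group did not overlap with either of the other groups, but CCl4 replicate 1 lay only just above the highest vehicle rat. The difference between CCl4 and vehicle was 1.07 on the log2 scale, or 2.1-fold, with an SE of 0.375 (limma adjusted p = 0.333). CCl4+Rot rats exceeded vehicle rats by 1.61, or 3.05-fold (limma adjusted p = 0.262). CCl4+Rot rats had a mean that was 0.54 above that of CCl4 rats, with a 95% interval of -0.33 to 1.41, and CCl4 replicate 2 lay above the lower pair of CCl4+Rot rats. The second Fbn1 probe set, present on all 9 arrays, gave log2 differences of 0.85, 0.48 and 1.33 for CCl4 against vehicle, CCl4+Rot against CCl4 and CCl4+Rot against vehicle, with the same groups free of overlap.

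Fibulin-1 is found in elastic fibres and basement membranes. Fbln1 (Entrez 315191, chromosome 7, 125845841 to 125855543, plus strand) had log2 signals of 5.44, 5.33 and 4.65 in vehicle rats, 6.40, 8.0 and 6.83 in CCl4 rats, and 7.36, 7.46 and 7.34 in CCl4+Rot rats. Only CCl4 replicate 2 was called present and CCl4+Rot replicate 5 was marginal, so the level of this gene was at the edge of what the arrays could detect. The vehicle rats lay below all others. The log2 difference between CCl4 and vehicle signals was 1.94 with an SE of 0.415 (limma adjusted p = 0.218), and it is given without a fold, since only 1 of the 6 arrays was called present. No fold is given for CCl4+Rot against vehicle either, since no array of these groups was called present.

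Fibulin-2 binds both fibrillin and tropoelastin. Fbln2 (Entrez 282583, chromosome 4, 187650675 to 187651592, minus strand, as the table lists it) gave log2 signals of 6.44, 6.60 and 7.18 in vehicle rats, 6.57, 7.37 and 8.78 in CCl4 rats, and 8.0, 7.06 and 7.95 in CCl4+Rot rats. The RefSeq entry of Fbln2 in GRCr8 lies on the plus strand, and why the listed strand differs was not tested. The groups overlapped in all comparisons, and the highest value, that of CCl4 replicate 3, was called absent. The log2 difference between CCl4 and vehicle was 0.84 (limma adjusted p = 0.564) and came to 0.23 without CCl4 replicate 3. CCl4+Rot and vehicle rats differed by 0.93 (limma adjusted p = 0.771).

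Fibulin-5 carries tropoelastin to the microfibril and also binds lysyl oxidase-like 1. Fbln5 (Entrez 29158, chromosome 6, 134856691 to 134935924, minus strand) stood close together in vehicle rats at log2 8.40, 8.23 and 8.26. It was spread in CCl4 rats at 7.53, 9.26 and 9.03, and reached 8.77, 9.44 and 9.63 in CCl4+Rot rats. CCl4 replicate 1 was thus below, and CCl4 replicates 2 and 3 above, every vehicle rat. The signal of CCl4 replicate 3 was called absent, and that of every other array present. The difference between CCl4 and vehicle was 0.31 (limma adjusted p = 0.799). It had no stable sign, being -0.050 under median centring, -0.017 without CCl4 replicate 2 and 0.10 without CCl4 replicate 3. All CCl4+Rot rats lay above all vehicle rats, with a difference of 0.98 and a 95% interval of -0.08 to 2.05 (limma adjusted p = 0.647).

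Efemp1, also known as fibulin-3, is a fibulin of fascia, capsules and basement membranes. It (Entrez 305604, chromosome 14, 112984216 to 112984807, plus strand) had log2 signals of 8.31, 7.10 and 6.50 in vehicle rats, 7.37, 5.06 and 2.60 in CCl4 rats, and 7.89, 8.15 and 7.23 in CCl4+Rot rats. CCl4 replicate 2 was called marginal and CCl4 replicate 3 absent, while every array of the other groups was present. The CCl4 rats alone spanned over 4 units, and CCl4 replicate 1 lay inside the range of both other groups. The difference between CCl4 and vehicle was -2.30, with a 95% interval of -4.86 to 0.27 (limma adjusted p = 0.447), and it was -1.09 without CCl4 replicate 3 and -3.47 without CCl4 replicate 1. Between CCl4+Rot and CCl4 it was 2.75, with an interval of 0.19 to 5.31 (limma adjusted p = 0.749), and 1.54 without CCl4 replicate 3. CCl4+Rot and vehicle differed by 0.45 (limma adjusted p = 0.971).

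Msln and Upk1b, markers of the mesothelium that covers the capsule, were called present on vehicle replicate 3, at log2 8.11 and 6.64, and on CCl4 replicate 1, at 9.32 and 7.80, and on no other array. These were the arrays with the highest Efemp1 of their groups. Wt1, the third mesothelial gene measured, was called present on 6 arrays, namely vehicle replicate 3, CCl4 replicates 1 and 2 and all CCl4+Rot replicates. Its signal was highest on CCl4 replicate 3, at 8.25 and called absent, where Efemp1 was lowest. The mean over the 3 mesothelial genes measured was 7.11, 5.52 and 5.61 in vehicle rats, 8.25, 6.33 and 7.02 in CCl4 rats and 7.0, 7.05 and 6.40 in CCl4+Rot rats. The part of capsule tissue in the Efemp1 values was not tested. Of the 5 arrays with Efemp1 present and both Msln and Upk1b absent, Wt1 was present on 3 and marginal on 2.

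Lysyl oxidase is the founding enzyme of the cross-linking family. Lox (Entrez 24914, chromosome 18, 46713759 to 46726391, minus strand) was called present in every rat. Its log2 signals were 9.13, 9.69 and 6.23 in vehicle rats, 9.33, 9.81 and 9.52 in CCl4 rats, and 9.72, 9.83 and 9.90 in CCl4+Rot rats. Vehicle replicate 5 was far below all other arrays, and the CCl4 and CCl4+Rot rats lay within 1 unit of each other. The mean difference of 1.20 between CCl4 and vehicle (SE 0.798, limma adjusted p = 0.56) came down to 0.14 without vehicle replicate 5. That of 1.47 between CCl4+Rot and vehicle (limma adjusted p = 0.728) came down to 0.41. The second Lox probe set, present on all 9 arrays, was also lowest in vehicle replicate 5, at 5.30 against 6.71 and 7.36 in the other vehicle rats. It gave a CCl4 difference of 1.08, and one of 0.88 between CCl4+Rot and vehicle, where the groups overlapped.

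Lysyl oxidase-like 1 works mainly on elastin and is bound by fibulin-5. Loxl1 (Entrez 315714, chromosome 8, 62843793 to 62846138, minus strand) was called absent in all vehicle rats, at log2 7.15, 5.89 and 3.49. It was 8.23, 9.79 and 7.97 in CCl4 rats, of which the last was called absent, and 9.29, 9.30 and 9.62 in CCl4+Rot rats, all present. Every rat given CCl4 lay above every vehicle rat. The log2 difference between CCl4 and vehicle was 3.15 (SE 0.898, limma adjusted p = 0.264). That between CCl4+Rot and vehicle was 3.89, with a 95% interval of 1.80 to 5.98 (limma adjusted p = 0.257). As a fold it was 14.8, a lower bound only as to the absent vehicle calls and not as to the spread between rats. Vehicle replicate 5 weighed on both log2 differences: without it they were 2.14 and 2.88, and without vehicle replicate 3 they were 3.97 and 4.71. Without CCl4 replicate 3 the difference between CCl4 and vehicle was 3.50. Between CCl4+Rot and CCl4 the difference was 0.74, with a 95% interval of -1.36 to 2.83 (limma adjusted p = 0.852), an interval that holds differences of over 2-fold in both directions.

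Lysyl oxidase-like 2 acts on collagen IV and fibrillar collagen. Loxl2 (Entrez 290350, chromosome 15, 55088800 to 55092881, plus strand) was called absent in vehicle rats, at log2 7.24, 6.47 and 6.60. CCl4 rats had 6.30, 7.92 and 7.42, of which only the second was present, and CCl4+Rot rats had 7.65, 8.58 and 8.19, of which the first was absent. CCl4 replicate 1 was the lowest of all 9 arrays, whereas all CCl4+Rot rats lay above all vehicle rats. The log2 difference between CCl4 and vehicle rats was 0.44 (limma adjusted p = 0.707), and it came to 0.039 under quantile normalization and 0.087 without CCl4 replicate 2. The log2 difference between CCl4+Rot and vehicle rats was 1.37 (limma adjusted p = 0.454), with 2 of the 3 CCl4+Rot arrays called present. CCl4+Rot exceeded CCl4 by 0.93, with an interval of -0.13 to 1.99.

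Counted against all genes, CCl4 rats were above vehicle rats without overlap for 4 of the 9 genes, where 12.5% of all genes showed this, and the same 4, Eln, Fbn1, Fbln1 and Loxl1, had an unadjusted p below 0.05, where 9.49% of all genes did. Limma called 0.0% of all genes in this comparison, so a count of 0 called members is that of the whole array. A limma fit with a mean-variance trend and robust spread called 1.09% of all genes higher and 1 of the 9, Eln (limma adjusted p = 0.046). The methods' t-test without adjustment, at 1.5-fold, counted 4.68% of all genes and 2 of the 9, Eln and Fbln1. Without CCl4 replicate 3 the counts of 4 stayed at 4. Without CCl4 replicate 1, which was the lowest of its group for most of these genes, 7 of the 9 were higher by each measure, with Fbln2, Fbln5 and Loxl2 added, and Efemp1 was lower by both.

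For CCl4+Rot against vehicle, 7 of the 9 genes had no overlap between groups, where 15.2% of all genes were higher without overlap. The remaining pair was Fbln2 and Efemp1. With probe sets averaged per gene, 5 were free of overlap. Lox was among the 7 by a narrow gap, with 9.72 in CCl4+Rot replicate 4 against 9.69 in vehicle replicate 4, and its second probe set overlapped. An unadjusted p below 0.05 was found for 5, namely Eln, Fbn1, Fbln1, Loxl1 and Loxl2, where 7.46% of all genes were higher by this measure. Limma called 0.0209% of all genes and none of the 9. The robust fit called 1.06% of all genes higher and 2 of the 9, Fbn1 (limma adjusted p = 0.0289) and Fbln1 (limma adjusted p = 0.0421), the latter a gene with no present call in these groups. The methods' t-test at 1.5-fold without adjustment counted 6.51% of all genes higher and 6 of the 9, leaving out Fbln2, Efemp1 and Lox. This comparison shares its vehicle arrays with the one before, so the 2 sets of counts are not independent.

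For CCl4+Rot against CCl4, none of the 9 genes was free of overlap, where 5.57% of all genes were higher without overlap. Efemp1 alone had an unadjusted p below 0.05, where 2.1% of all genes were higher by this measure, and it lost that when any of 6 of the 9 arrays was left out, CCl4 replicate 3 among them. Limma called 0.0% of all genes, the robust fit 0.00696% higher and the methods' t-test at 1.5-fold without adjustment 0.835% higher, and none of them called any of the 9. The median difference over the 9 genes was 0.54, against -0.05 over all genes, and 8 of the 9 means were higher in CCl4+Rot rats. By group means, 7 of the 9 genes ran upward from vehicle over CCl4 to CCl4+Rot, an order held by 16.6% of all genes. Eln and Efemp1 were the exceptions. The count rested on the CCl4 rats: without CCl4 replicate 2, 5 of the 9 genes, namely Fbn1, Fbln1, Lox, Loxl1 and Loxl2, were higher in CCl4+Rot rats without overlap and the median was 0.91, and without CCl4 replicate 1 the median was 0.15.

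**Figure D2:**
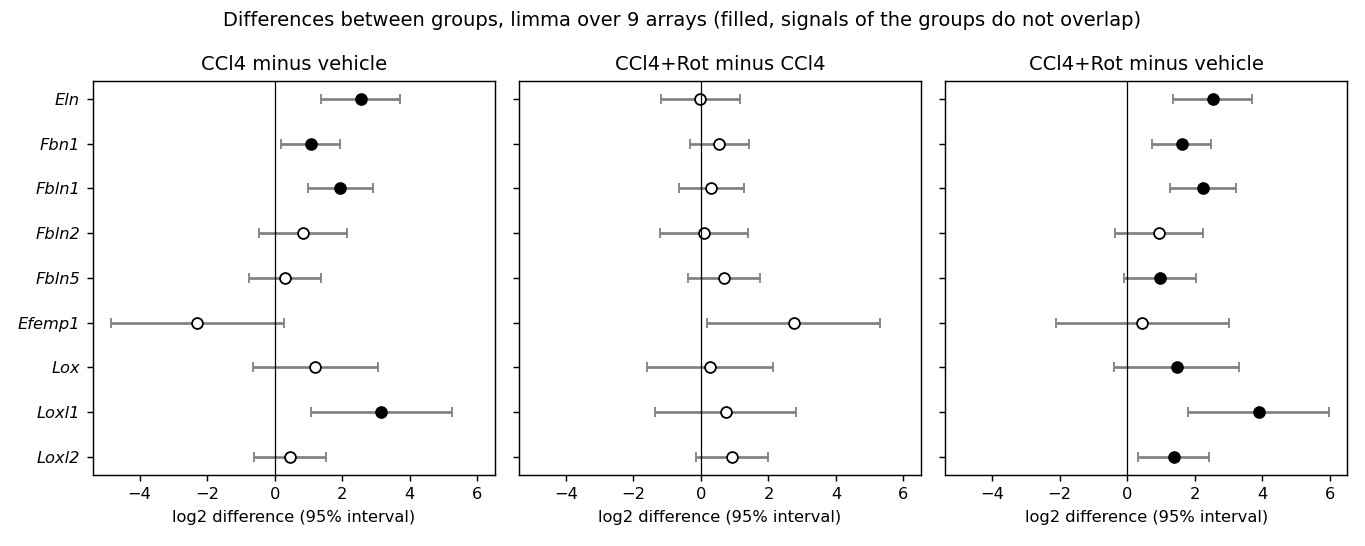
Difference in mean log2 signal (horizontal axis) for the 9 genes in each comparison, with the 95% interval of the limma fit; no adjusted p was below 0.05. The Eln interval for CCl4 minus vehicle runs from 1.37 to 3.73, and that for CCl4+Rot minus CCl4 from -1.19 to 1.16.

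Median centring shifted the median of all genes by -0.36 for CCl4 against vehicle, by 0.25 for CCl4+Rot against CCl4 and by -0.11 for CCl4+Rot against vehicle, and quantile normalization shifted the first by -0.12. Relative to the median of all genes, the median of the 9 genes was 0.94 higher in CCl4 than in vehicle rats as deposited and 1.08 after quantile normalization. Median centring moves all genes alike and leaves this value as it was. Relative to the same median, CCl4+Rot was 0.59 above CCl4 as deposited and 0.61 after quantile normalization.

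The 4 dimmer probe sets separated into readable and unreadable ones. Those of Fbn1 and Lox were present on all arrays and ran as described. The dimmer probe sets of Eln (chromosome 12, 26989503 to 26990139) and Fbln1 (chromosome 7, 125889742 to 125890031) were called present on no array and are given no fold. For Lox, the dimmer probe set differed in sign from the brighter one between CCl4+Rot and CCl4, at -0.19 against 0.26, and neither interval left out 0.

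**Figure D3:**
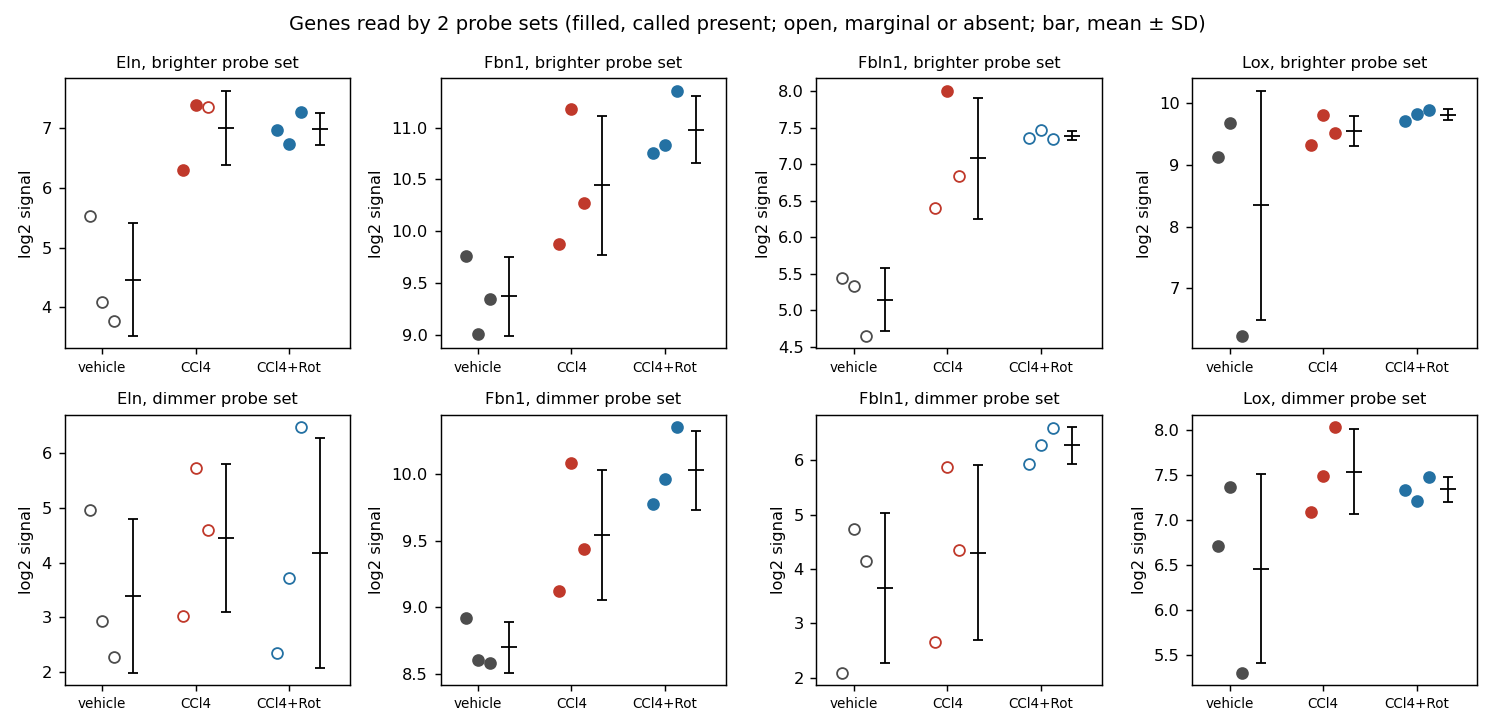
Log2 signal on each array (vertical axis) of the brighter and dimmer probe sets of Eln, Fbn1, Fbln1 and Lox, by group (horizontal axis); filled points were called present. Both Fbn1 probe sets are present on all 9 arrays, both Lox probe sets are lowest in vehicle replicate 5, and the dimmer Eln and Fbln1 probe sets have no filled point.

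Within the vehicle and CCl4 groups, single rats held most of the highest or lowest values. Among vehicle rats, replicate 3 had the highest value for 7 of the 9 genes and replicate 5 the lowest for 5. Vehicle replicate 3 was also the one vehicle array with Msln and Upk1b called present, and the part of this in the other genes was not tested. Among CCl4 rats, replicate 2 was highest for 7 and replicate 1 lowest for 7. The mean over the 9 genes was 7.49, 6.93 and 6.22 in vehicle rats 3, 4 and 5, and 7.54, 8.42 and 7.75 in CCl4 rats 1, 2 and 3. In CCl4+Rot rats 4, 5 and 6 it was 8.49, 8.60 and 8.72. The means of vehicle and CCl4 rats were thus nearly continuous, with CCl4 replicate 1 next to vehicle replicate 3, while the means of CCl4+Rot rats lay above all others. The place of CCl4 replicate 2 below all CCl4+Rot rats depends on Efemp1. That gene was 5.06, called marginal, in CCl4 replicate 2 and 7.89, 8.15 and 7.23 in CCl4+Rot rats 4, 5 and 6. By the median over the 9 genes, CCl4 replicate 2, at 8.004, lay above CCl4+Rot replicate 4, at 7.999. CCl4 replicate 3 had 2 of the 9 genes called present, against 7 and 8 on the other CCl4 arrays.

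**Figure D4:**
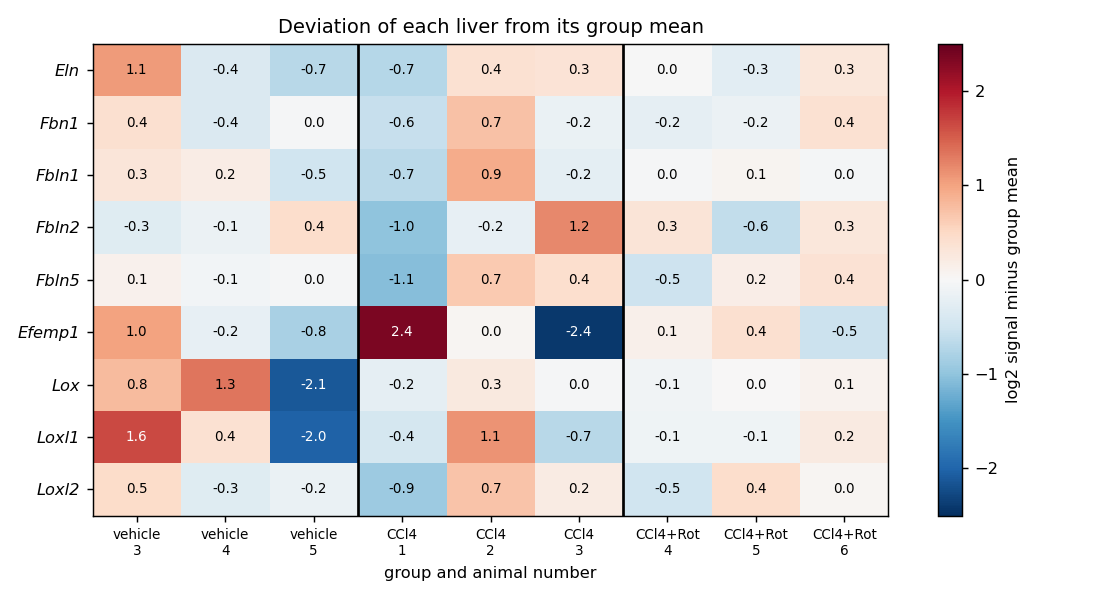
Deviation of each array from the mean of its group (colour and number, log2) for the 9 genes (rows) over the 9 arrays (columns). The mean deviation is 0.61 for vehicle replicate 3, -0.66 for vehicle replicate 5 and 0.51 for CCl4 replicate 2, and between -0.11 and 0.12 for the CCl4+Rot rats.

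Markers of the cells that can make elastic fibres were read on the same arrays. The mean log2 signal of 11 markers of stellate cells and myofibroblasts was 8.96, 8.70 and 8.91 in vehicle rats, 9.26, 10.06 and 9.93 in CCl4 rats, and 9.81, 9.99 and 10.10 in CCl4+Rot rats. The vehicle rats lay below all others, and CCl4 replicate 2 was again the highest and replicate 1 the lowest of its group. All 11 means were higher in CCl4 than in vehicle rats, where 61.2% of all genes were, and 6 of them had an unadjusted p below 0.05, where 9.49% of all genes did and were higher. Of the 11, 9 to 11 were called present on each array. Of 3 portal fibroblast markers measured, Thy1 and Gli1 were called present on no array. Entpd2, the third, was called present on 4 arrays, all of them from rats given CCl4. It was higher in CCl4 than in vehicle rats without overlap, at 6.62, 7.25 and 7.49 against 6.31, 6.02 and 6.02 (limma adjusted p = 0.238). Of all genes, 12.5% were higher without overlap in this comparison. The value of 7.49, on CCl4 replicate 3, and all vehicle values were called absent. The mean of 4 vascular smooth muscle markers was 6.78, 7.77 and 8.0 in vehicle rats, 6.66, 6.62 and 6.82 in CCl4 rats, and 7.04, 7.15 and 6.82 in CCl4+Rot rats. All 4 means were lower in CCl4 than in vehicle rats, where 61.2% of all genes were higher. Of the 4, the vehicle arrays had 2, 3 and 4 called present, the CCl4 arrays 2, 1 and 0, and the CCl4+Rot arrays 1, 2 and 2. Myh11 was called present on 1 array and Cnn1 on 2, so these signals lay largely at the edge of detection. That of 5 endothelial markers lay between 9.67 and 10.30 on all arrays. The part of cell numbers in the elastic fibre values was not tested.

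Other genes of the pathway were read in 4 lists, none of which had a gene called by limma. Of 15 genes measured for microfibrils and fibre assembly, 4 had an unadjusted p below 0.05 and a higher mean in CCl4 than in vehicle rats, 1 in CCl4+Rot than in CCl4 rats and 7 in CCl4+Rot than in vehicle rats, and none a lower mean. The shares of all genes higher by this measure were 9.49%, 2.1% and 7.46%. Of the 15, 2 were called present on no array, among them Mfap2, which is counted in the 7. Efemp2, the fibulin that brings lysyl oxidase to tropoelastin, differed by 1.27 between CCl4 and vehicle (limma adjusted p = 0.241) and by 1.65 between CCl4+Rot and vehicle (limma adjusted p = 0.192). Ltbp1, which tethers latent TGF-β to microfibrils, differed by 1.12 and 1.80. Ltbp4, which guides elastin assembly with fibulin-5, differed by 1.06 between CCl4+Rot and vehicle. Adamtsl2, a microfibril-binding glycoprotein, differed by 1.57 and 2.52. Between CCl4+Rot and vehicle the robust fit called 5 of the 15 genes higher, where it called 1.06% of all genes higher. By its adjusted p they were Ltbp1 (0.00733), Adamtsl2 (0.0103), Ltbp2 (0.0196), Efemp2 (0.0196) and Ltbp4 (0.042). Ltbp2 was called absent in all vehicle rats and present in all CCl4+Rot rats. Its level was 3.60-fold higher in the latter (limma adjusted p = 0.192). The log2 difference was 1.85, with an interval of 1.02 to 2.68 in the limma fit. That fold is a lower bound only as to the absent vehicle calls and not as to the spread between rats. Hmcn1, a fibulin relative, was the gene of this list with an unadjusted p below 0.05 between CCl4+Rot and CCl4, at 0.70 (limma adjusted p = 0.75).

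**Figure D5:**
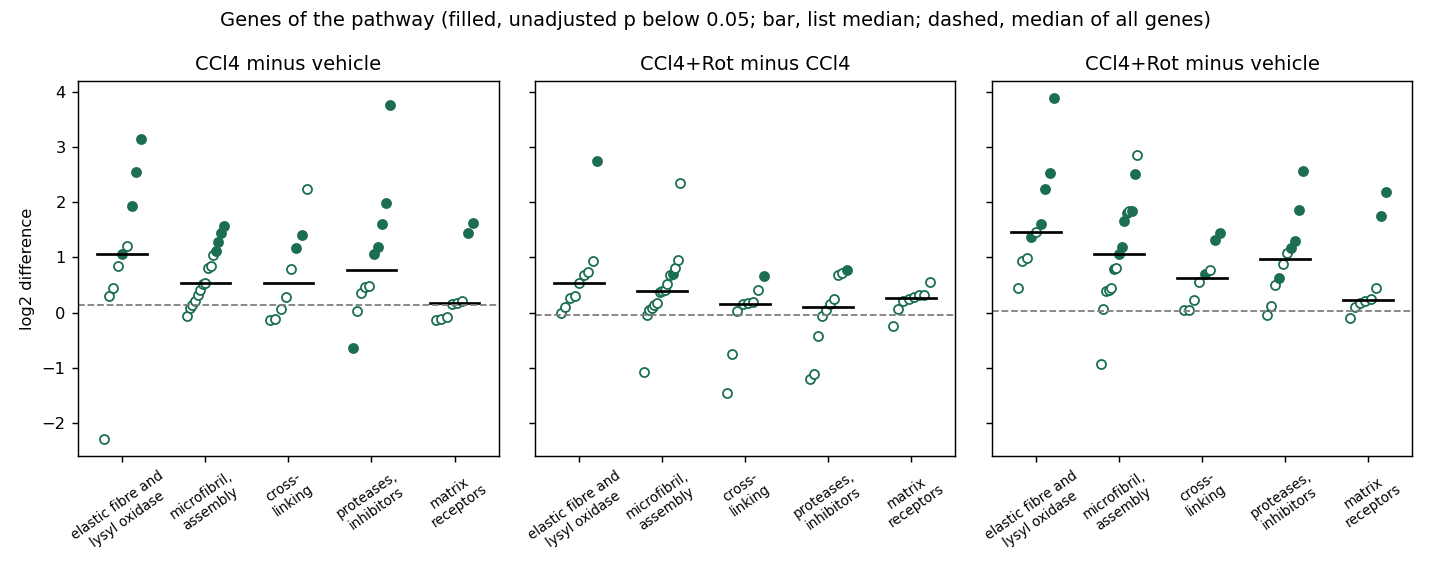
Difference in mean log2 signal (vertical axis), by comparison, 1 point per gene. The elastic fibre and lysyl oxidase genes and the genes of the 4 pathway lists are set along the horizontal axis. The median of the 15 microfibril and assembly genes is 0.54 for CCl4 minus vehicle, 0.38 for CCl4+Rot minus CCl4 and 1.06 for CCl4+Rot minus vehicle.

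Among 8 genes measured for cross-linking and for processing of the enzymes, Pcolce, an enhancer of procollagen processing, was 1.16 higher in CCl4 and 1.32 higher in CCl4+Rot than in vehicle rats. Plod2, the lysyl hydroxylase that prepares collagen for stable cross-links, was 1.41 and 1.44 higher. Both had an adjusted p below 0.05 in the robust fit for each comparison, at 0.0419 and 0.0282 for Pcolce and at 0.0181 and 0.0136 for Plod2. That fit called 1.09% and 1.06% of all genes higher in these comparisons. Bmp1, which cleaves the propeptide of lysyl oxidase, was 0.67 higher in CCl4+Rot than in CCl4 rats, with no overlap (limma adjusted p = 0.747). Its list had 2, 1 and 3 genes with an unadjusted p below 0.05 for CCl4 against vehicle, CCl4+Rot against CCl4 and CCl4+Rot against vehicle, all higher, where 9.49%, 2.1% and 7.46% of all genes were. Of the 8, 2 were called present on no array, and these are not in the counts.

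Of 10 elastin-degrading proteases and their inhibitors, 5 were higher and 1 lower in CCl4 than in vehicle rats at an unadjusted p below 0.05, where 9.49% of all genes were higher. The largest difference was that of Mmp12, the macrophage elastase, at 3.76 on the log2 scale (limma adjusted p = 0.171). It was 2.56 between CCl4+Rot and vehicle. Timp1, an inhibitor of metalloproteinases, was 1.60 and 1.16 higher, and Mmp2, a gelatinase, 1.18 and 1.87 higher. Between CCl4 and vehicle the robust fit called 4 of the 10 higher, where it called 1.09% of all genes higher. By its adjusted p they were Timp1 (0.00343), Mmp12 (0.00813), Timp2 (0.0194) and Mmp2 (0.0406). Timp3, the inhibitor bound to matrix, was the one with a lower mean in CCl4 rats, by -0.65 (limma adjusted p = 0.328), and was 0.76 higher in CCl4+Rot than in CCl4 rats (limma adjusted p = 0.708). Of 8 receptors for these matrix proteins, 5 had a higher and 3 a lower mean in CCl4 than in vehicle rats, with a median difference of 0.17. Itga8, the α8 integrin chain, and Itgb6, the β6 chain, had an unadjusted p below 0.05 in this comparison, where 9.49% of all genes were higher by this measure, and likewise between CCl4+Rot and vehicle, where 7.46% were. Itga8 was 1.62 higher in CCl4 and 2.18 higher in CCl4+Rot than in vehicle rats. Itgb6 was called present on 1 array of the 9 and is given no fold.

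The genes whose signal ran most like the average of the elastic fibre genes were found by Pearson's r over the 9 arrays, with the 8 members present on at least 3 arrays standardised and averaged, among 9803 genes. The 5 highest were F2r, the thrombin receptor, with r = 0.989, Ltbp4 with 0.987, Fgfr2, a fibroblast growth factor receptor, with 0.985, Parva, an actin-binding partner of integrin-linked kinase, with 0.982 and Armcx2 with 0.976. Among the members themselves r with that average was 0.945 for Fbn1, 0.924 for Loxl1, 0.902 for Loxl2, 0.896 for Eln, 0.825 for Fbln5, 0.722 for Lox, 0.521 for Fbln2 and -0.028 for Efemp1. For Fbln1, called present on 1 array and so left out of the average, r was 0.925. The 9 points share 3 group means, and apart from Fbln1 each member is part of the average.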

How the data were processed

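Biotin-labelled cRNA from the livers of 9 rats was read on Affymetrix rat arrays, 1 per rat and 3 per group. Per array, the authors deposited detection calls and log2 signals of 31099 probe sets. On the linear scale the mean of CCl4 replicate 1, the only array for which it was computed, is 500 once 2% are trimmed at each end. The submitters' processing notes name MAS5 and affy. The build behind the listed positions is not given in the sources used here. The number of arrays limits the precision.

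After 57 control probe sets were left out, the other 31042 went into a limma 3.58.1 model (R 4.3.3) of 3 group means over 9 arrays, without covariates, and Benjamini-Hochberg adjustment ran over all of them. The study's methods do not say which test was used for the arrays. The fitting script was tested on simulated data. A gene was read by the probe set with the highest mean signal among those naming that gene alone (20317 probe sets, 14377 genes). Where neither group had a present call, no fold was computed. A gene with a present call in only 1 of the groups compared got a bound, each signal of the dim group being raised to at least the lowest present signal on its array. The bound is printed as a fold only where all arrays of the brighter group were called present. The 9 members were all named, and a gene of the pathway lists could be named where its unadjusted p was below 0.05. The members and lists were chosen with earlier results of these data known. Upstream sequences were taken from RefSeq (GRCr8). Alternatives were other scalings, filters, probe set rules, spread estimates, the methods' t-test, a replicate block and leaving out each array. A filter on detection and array weights were added after the data were seen.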

Additional observations from a re-analysis of the deposited data

How the results depend on the processing

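Of 564 changes of single genes under the alternatives, 540 kept direction and side of the threshold, 11 crossed it upward and 13 turned sign. Eln between CCl4+Rot and CCl4 was 0.28 under quantile normalization, 0.23 under median centring and -0.37 to 0.17 with each array left out. Fbln5 between CCl4 and vehicle was -0.050 under median centring and -0.017 to 0.84 with each array left out. Between CCl4+Rot and CCl4, Fbln1 was -0.20 with array weights and -0.032 to 0.77 with each array left out, and Fbln2 ran from -0.41 to 0.70. The robust fit called 1 gene for CCl4 against vehicle and 2 for CCl4+Rot against vehicle, where limma called 0. Why the robust fit differed was not tested. The methods' t-test without adjustment counted 2 and 6, by an unadjusted p, which is a looser threshold than the adjusted p of the limma calls.

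For CCl4 against vehicle, 2 genes were free of overlap under median centring and 2 with probe sets averaged, against 4. The number with an unadjusted p below 0.05 was 2 by the methods' t-test and 2 with probe sets averaged. With each array left out, 4 to 8 genes were free of overlap and 3 to 8 had such a p, the highest counts being those without CCl4 replicate 1. For CCl4+Rot against CCl4, 2 genes had such a p under median centring, 2 in the robust fit, 0 with only the compared groups fitted and 0 by the methods' t-test. With each array left out the count was 0 to 3, 0 to 5 genes were free of overlap and the median ran from 0.15 to 0.91, with the highest values without CCl4 replicate 2.

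Vehicle and CCl4+Rot rats share numbers 4 and 5, and vehicle and CCl4 rats number 3, but same-numbered rats did not deviate together, with correlations of -0.090, -0.0047 and -0.013 for numbers 3, 4 and 5. With the number as a replicate block, limma called 0 of the 9 genes in each comparison, and 4, 1 and 5 had an unadjusted p below 0.05. Signals called absent or marginal limit what can be read from Eln, Fbln1, Loxl1 and Loxl2 in vehicle rats.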
